A study of Mus musculus with 11 samples.

Results

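Heterogeneous nuclear ribonucleoproteins (hnRNPs) are abundant RNA-binding proteins that coat nascent transcripts and act in splicing, polyadenylation, transport and decay of mRNA. Several of them are known to limit their own amount: the protein binds its own transcript and favours a splice form with a stop codon ahead of an exon junction, and nonsense-mediated mRNA decay (NMD) then removes that form. SMG6 is the endonuclease of NMD that cuts such transcripts near the stop codon. The genes described here are the 10 listed members of this family, *Hnrnpa1*, *Hnrnpa2b1*, *Hnrnpd*, *Hnrnpdl*, *Hnrnph1*, *Hnrnpk*, *Hnrnpl*, *Hnrnpm*, *Hnrnpr* and *Hnrnpu*, which were taken by name. All 10 were found among the 53801 gene identifiers counted and all 10 passed the filter on low counts in every comparison.

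The study asked how neuroprogenitor cells (NPCs) respond to the loss of SMG6, and sequenced total RNA of 11 NPC cultures from brains of mouse embryos at embryonic day E13.5, after depletion of ribosomal RNA. All embryos were *Smg6* flox/flox on a C57BL/6 background mixed with 129SV, so every control carried the floxed alleles too. The Ctr group was *Smg6* Flox/Flox; RosaCreER tg/+ without 4-OHT (embryos SMH_128, SMH_132 and SMH_133, n = 3). The Ctr + 4-OHT group was *Smg6* flox/flox without the Cre transgene and received 4-OHT (embryos SMH_125, SMH_126, SMH_129 and SMH_131, n = 4). The *Smg6*-iKO group was *Smg6* Flox/Flox; RosaCreER tg/+ with 4-OHT (embryos SMH_127, SMH_128, SMH_132 and SMH_133, n = 4). 4-OHT is 4-hydroxytamoxifen, which switches on the CreER recombinase, and Cre driven from the Rosa26 locus is not restricted to a cell type. It was given at 1 µM for 3 days according to the sample labels, and cultures were analysed on day 6 after its start. Embryos SMH_128, SMH_132 and SMH_133 gave a Ctr and a *Smg6*-iKO library each, so these are pairs from the same animal. 8 embryos were used in all, and both comparisons of *Smg6*-iKO share its 4 libraries.

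The libraries held from 26418249 to 33756875 reads assigned to genes. The 12 progenitor markers examined were each above 1 CPM (counts scaled to the size of the library, per M counts) in every group. Their summed level was 5430.0 to 5682 CPM per library in Ctr, 4755 to 5893 CPM in Ctr + 4-OHT and 4669 to 5264 CPM in *Smg6*-iKO, so that all *Smg6*-iKO libraries lay below all of Ctr and overlapped Ctr + 4-OHT. All 8 neuron markers were present as well, with a summed level of 1941 to 2179 CPM in Ctr, 1775 to 2902 CPM in Ctr + 4-OHT and 2269 to 2631 CPM in *Smg6*-iKO, which lay above all of Ctr. The sums were 692.4 to 876.2 CPM for 6 astrocyte markers and 235.0 to 399.5 CPM for 7 markers of the oligodendrocyte lineage. Summed markers of microglia reached 3.88 CPM, those of endothelium 7.58 CPM and those of erythroid cells 0.611 CPM at most. The total of *Smg6* reads was 62.3 to 71.9 CPM in *Smg6*-iKO, 66.5 to 72.3 CPM in Ctr + 4-OHT and 69.4 to 79.4 CPM in Ctr, and was not called in either comparison of unpaired libraries (log2 fold change -0.059, adjusted p = 0.703 against Ctr + 4-OHT, and -0.17, adjusted p = 0.148 against Ctr, edgeR). With the embryo as a block it fell against Ctr by 0.15 on the log2 scale (adjusted p = 0.0430, edgeR). That fit called 21.4% of all genes, 11.2% as lower. A count over the whole gene does not show the floxed part. *Gas5*, a host gene of small nucleolar RNAs whose spliced RNA is a known NMD target, rose to between 681.2 and 785.9 CPM in *Smg6*-iKO, from 254.7 to 337.9 CPM in Ctr + 4-OHT and 322.9 to 342.2 CPM in Ctr (log2 fold change 1.27, adjusted p = 0.000223, and 1.10, adjusted p = 1.22e-05, edgeR).

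The annotation shows which of the 10 genes have a transcript typed as a target of NMD. In GENCODE M21 (GRCm38) they have 136 transcripts, of which 18 are typed as nonsense_mediated_decay and 37 as retained introns. The 18 fall in 8 of the 10 genes. *Hnrnph1* and *Hnrnpm* have none in this annotation, which does not show that they make no such form. Among the other 20 hnRNP family genes examined, 6 have such a transcript. Only gene totals were counted, so a shift between splice forms within a gene cannot be seen in them.

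**Figure D1:**
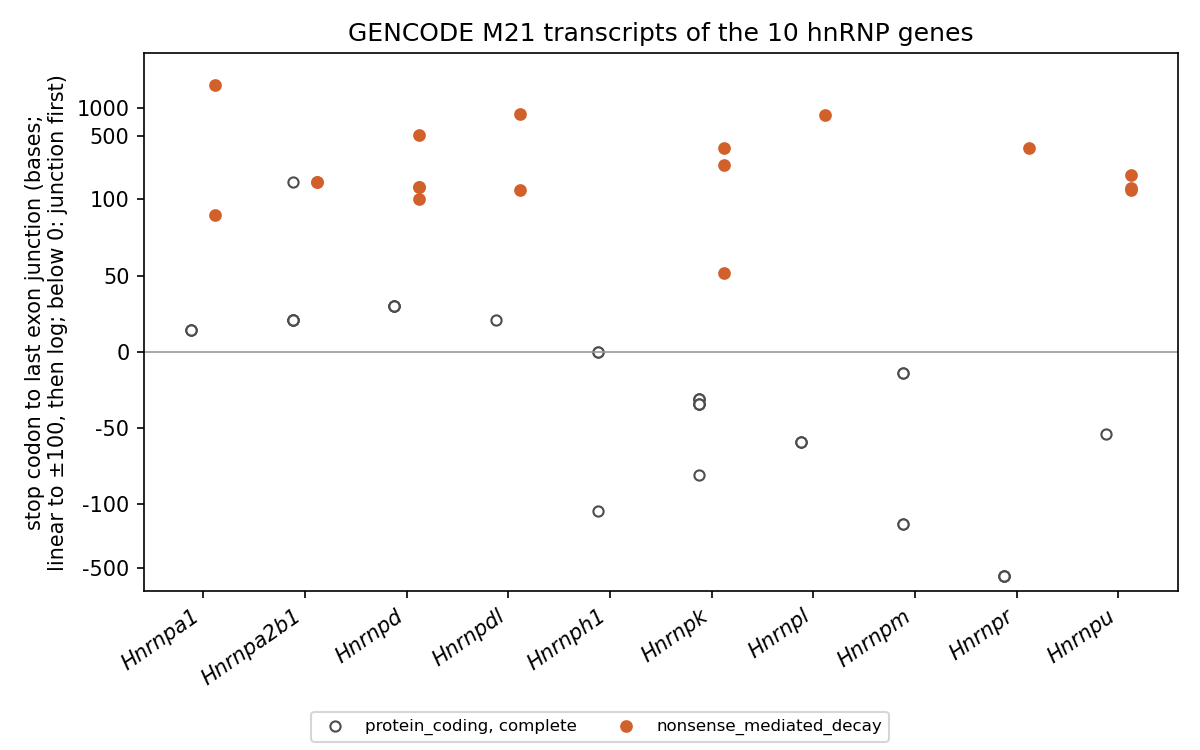
Distance in bases from the stop codon to the last exon junction (vertical axis, linear within 100 bases of 0 and logarithmic beyond) for each annotated transcript of the 10 hnRNP genes (horizontal axis), as open points for complete protein-coding transcripts and filled points for transcripts typed as nonsense_mediated_decay. The higher filled point of *Hnrnpdl* lies at 860 bases, against 21 bases for its complete coding transcript, and *Hnrnph1* and *Hnrnpm* have no filled point.

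The end of the open reading frame of 1 or 2 such transcripts per gene is given from the GENCODE M21 transcript sequences, so that their stop codons can be seen. Each line holds the last 27 coding bases and, in capitals, the stop codon, with the stop codon's position on GRCm38.
Hnrnpdl-201, chr5:100036125-100036127, minus strand: aatcaccagaacaattaccagccctacTAA
Hnrnpdl-205, chr5:100038593-100038595, minus strand: attctccgcgtgcccgctggaccccagTAG
Hnrnpd-208, chr5:99962545-99962547, minus strand: ggacatcaaaatagctacaaaccatacTAA
Hnrnpa1-203, chr15:103244012-103244014, plus strand: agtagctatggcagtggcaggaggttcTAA
Hnrnpa2b1-207, chr6:51463432-51463434, minus strand: ggtggctatggtggaaggagcagatatTAA
Hnrnpk-203, chr13:58396879-58396881, minus strand: cgtacagaccatactgagtatcagtgcTGA
Hnrnpl-213, chr7:28817391-28817393, plus strand: tctttcagaactgtgctaactcactgtTGA
Hnrnpr-206, chr4:136317112-136317114, plus strand: acaaaagtgcatttttatgtggagttaTGA
Hnrnpu-206, chr1:178325281-178325283, minus strand: gtccatgtgaatgtgctgtgtgaagagTAA

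These transcripts are of 2 kinds. In Hnrnpdl-201, Hnrnpd-208, Hnrnpa1-203 and Hnrnpa2b1-207 the stop codon is that of a protein-coding transcript of the same gene, and what differs is the number of exon junctions that follow it. With 2 junctions after the stop in each, the last junction lies between 90 bases (Hnrnpa1-203) and 157 bases (Hnrnpa2b1-207) downstream. The complete coding transcript of *Hnrnpdl* has its last junction 21 bases after the same stop. A transcript of *Hnrnpa2b1* that is typed as protein-coding has the same distance of 157 bases. In the other 5 transcripts the stop is used by no protein-coding transcript of the gene. The last junction then lies 860 bases downstream in Hnrnpdl-205, 238 in Hnrnpk-203, 842 in Hnrnpl-213, 368 in Hnrnpr-206 and 183 in Hnrnpu-206. *Hnrnpd* and *Hnrnpdl*, which encode closely related proteins, lie 54638 bases apart on chromosome 5.

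Levels of the 10 genes were compared with each other per kilobase of union exon length, over all 11 libraries. *Hnrnpa2b1* was the highest with 101.6 ± 5.18 CPM per kilobase (SD, n = 11 libraries of 8 embryos, which includes differences between the groups). It was followed by *Hnrnpu* at 78.6 ± 3.58, *Hnrnph1* at 77.6 ± 2.46, *Hnrnpdl* at 67.6 ± 5.89, *Hnrnpl* at 63.6 ± 1.74 and *Hnrnpk* at 58.7 ± 3.56 CPM per kilobase. *Hnrnpm* (42.3 ± 1.8), *Hnrnpa1* (33.7 ± 1.85), *Hnrnpd* (12.6 ± 0.863) and *Hnrnpr* (8.12 ± 0.491 CPM per kilobase) were lower. Neighbours in this order were in the same order in all 11 libraries, with 4 exceptions. *Hnrnpu* was above *Hnrnph1* in 8 libraries, *Hnrnph1* above *Hnrnpdl* in 10, *Hnrnpdl* above *Hnrnpl* in 6 and *Hnrnpl* above *Hnrnpk* in 10 libraries. The 6 libraries with *Hnrnpdl* above *Hnrnpl* were all 4 of *Smg6*-iKO, 1 of Ctr + 4-OHT and 1 of Ctr. Their means were 74.8 and 62.2 CPM per kilobase in *Smg6*-iKO, 62.9 and 64.1 in Ctr + 4-OHT and 64.2 and 64.6 in Ctr, so that *Hnrnpdl* stood below *Hnrnpl* in both control groups. *Hnrnpu* and *Hnrnph1* had means of 80.1 and 79.9 CPM per kilobase in Ctr and 79.2 and 76.3 in Ctr + 4-OHT. In *Smg6*-iKO the means were 76.8 and 77.2, but *Hnrnpu* was above *Hnrnph1* in 3 of the 4 libraries. This was also so in 3 of 4 libraries of Ctr + 4-OHT and 2 of 3 of Ctr. The *Smg6*-iKO library with the other order was that of SMH_133 (75.0 and 80.1 CPM per kilobase). The order also depends on the length used. By the longest coding transcript *Hnrnpl* was in place 3, *Hnrnpu* in place 5 and *Hnrnpdl* in place 6. That transcript has 2752 bases in *Hnrnpdl* and 2679 in *Hnrnpl*, whose mean levels in *Smg6*-iKO were 360.5 and 370.3 CPM. With this length the *Hnrnpdl* mean was thus below that of *Hnrnpl* in *Smg6*-iKO too. *Hnrnpr*, whose union exon length is 22199 bases, moved from place 10 to place 8 when the median coding transcript was used.

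**Figure D2:**
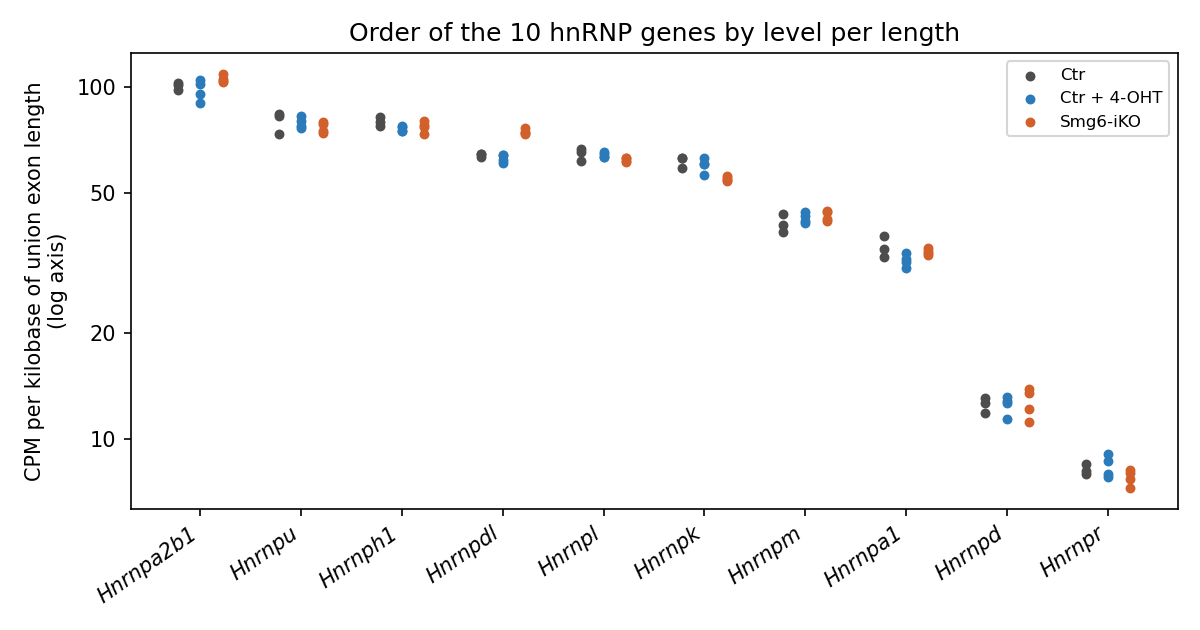
CPM per kilobase of union exon length (vertical axis, logarithmic) of the 10 hnRNP genes in order of their mean (horizontal axis), 1 point per library in Ctr, Ctr + 4-OHT and *Smg6*-iKO. *Hnrnpa2b1* is the highest, at 101.6 CPM per kilobase on average, and *Hnrnpr* the lowest, at 8.12.

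The 10 genes summed to 3730.8 ± 116.4 CPM in Ctr (SD, n = 3), 3664.8 ± 90.8 CPM in Ctr + 4-OHT (SD, n = 4) and 3700.1 ± 57.5 CPM in *Smg6*-iKO (SD, n = 4), and these ranges overlapped. Each gene was counted with 2247 to 31725 reads per library, which gives a counting error of 2.11% at the lowest and 0.561% at the highest count. The coefficient of variation within a group was 1.16% to 9.86%.

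*Hnrnpdl* was the only one of the 10 genes called in *Smg6*-iKO without pairing of the libraries by embryo (adjusted p under 0.05, edgeR's quasi-likelihood test with Benjamini-Hochberg adjustment over all genes tested). It encodes a relative of HNRNPD that binds AU-rich RNA and acts in splicing and mRNA turnover. The gene (ENSMUSG00000029328) lies on the minus strand at chr5:100033577-100039664. Its level was 310.6, 305.2 and 311.9 CPM in Ctr (embryos SMH_128, SMH_132 and SMH_133), 300.1, 310.2, 308.9 and 293.2 CPM in Ctr + 4-OHT (embryos SMH_125, SMH_126, SMH_129 and SMH_131) and 355.7, 369.9, 357.4 and 359.1 CPM in *Smg6*-iKO (embryos SMH_127, SMH_128, SMH_132 and SMH_133). All *Smg6*-iKO libraries lay above all control libraries, and the control groups overlapped. The rise against Ctr + 4-OHT was 0.26 on the log2 scale (standard error 0.048, 95% interval 0.15 to 0.37, adjusted p = 0.0345, edgeR), a 1.20-fold rise with an interval of 1.11 to 1.29. Against Ctr it was 0.22 (standard error 0.048, 95% interval 0.11 to 0.33, adjusted p = 0.0208, edgeR), a 1.17-fold rise. Between Ctr + 4-OHT and Ctr it was -0.029 (95% interval -0.16 to 0.098, adjusted p = 0.909, edgeR). Within the 3 embryos with both libraries *Hnrnpdl* was higher in *Smg6*-iKO in all 3, by 0.25, 0.23 and 0.20 on the log2 scale in embryos SMH_128, SMH_132 and SMH_133. With the embryo as a block the rise against Ctr was 0.23 (adjusted p = 0.00264, edgeR), and this fit also called *Hnrnpk*, as lower.

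The *Hnrnpdl* rise was called in 8 of 9 other ways of processing against Ctr + 4-OHT and in 10 of 10 against Ctr, among them DESeq2 on the same libraries (adjusted p = 8.04e-06 and 0.000469). When a library was left out its size moved little, but its call in edgeR was often lost. Against Ctr + 4-OHT the log2 fold change lay between 0.24 and 0.27 and the adjusted p between 0.0557 and 0.126 (edgeR), above the threshold without any 1 of the 8 libraries (4 of Ctr + 4-OHT and 4 of *Smg6*-iKO). Against Ctr it lay between 0.20 and 0.23, and the call was lost without the Ctr library of SMH_128 (adjusted p = 0.0697), SMH_132 (0.0874) or SMH_133 (0.0505) or the *Smg6*-iKO library of SMH_133 (0.0647, edgeR). The Ctr + 4-OHT libraries of embryos SMH_125 and SMH_131 had the highest neuron marker sums, 2902 and 2690 CPM. Without both the *Hnrnpdl* log2 fold change was 0.22 (adjusted p = 0.0793, edgeR). Against Ctr, the summed progenitor markers were lower (4669 to 5264 against 5430.0 to 5682 CPM) and the summed neuron markers higher in all *Smg6*-iKO libraries, and their part in the *Hnrnpdl* difference was not tested. In cultures sequenced in bulk, a change in the share of a cell type and a change in RNA per cell cannot be told apart. Of the 50-base stretches of *Hnrnpdl* transcripts, 3.08% also occur in a transcript of another gene.

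For the 10 genes together, the call of *Hnrnpdl* is 1 of 10 against Ctr + 4-OHT, where 1.17% of all 17558 genes tested were called and 0.757% called higher, and 1 of 10 against Ctr, where 9.25% of 17974 were called and 4.27% called higher. At an unadjusted p under 0.05 there were 2 of 10 in each, *Hnrnpdl* and *Hnrnpk*, beside 16.7% and 26.9% of all genes. In Ctr + 4-OHT against Ctr edgeR called none of the 10 (0.221% of 17665 genes were called), none had an unadjusted p under 0.05 (8.28% of all genes did), and DESeq2 called none either (0.825% of its genes were called). With upper-quartile normalization the calls over all genes against Ctr were 1089 higher and 694 lower, in place of 767 higher and 896 lower. The median log2 fold change of the 10 genes was 0.028 against Ctr + 4-OHT and -0.047 against Ctr, beside 0.012 and 0.0055 over all genes tested. It was -0.023 between the controls, beside 0.0045.

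**Figure D3:**
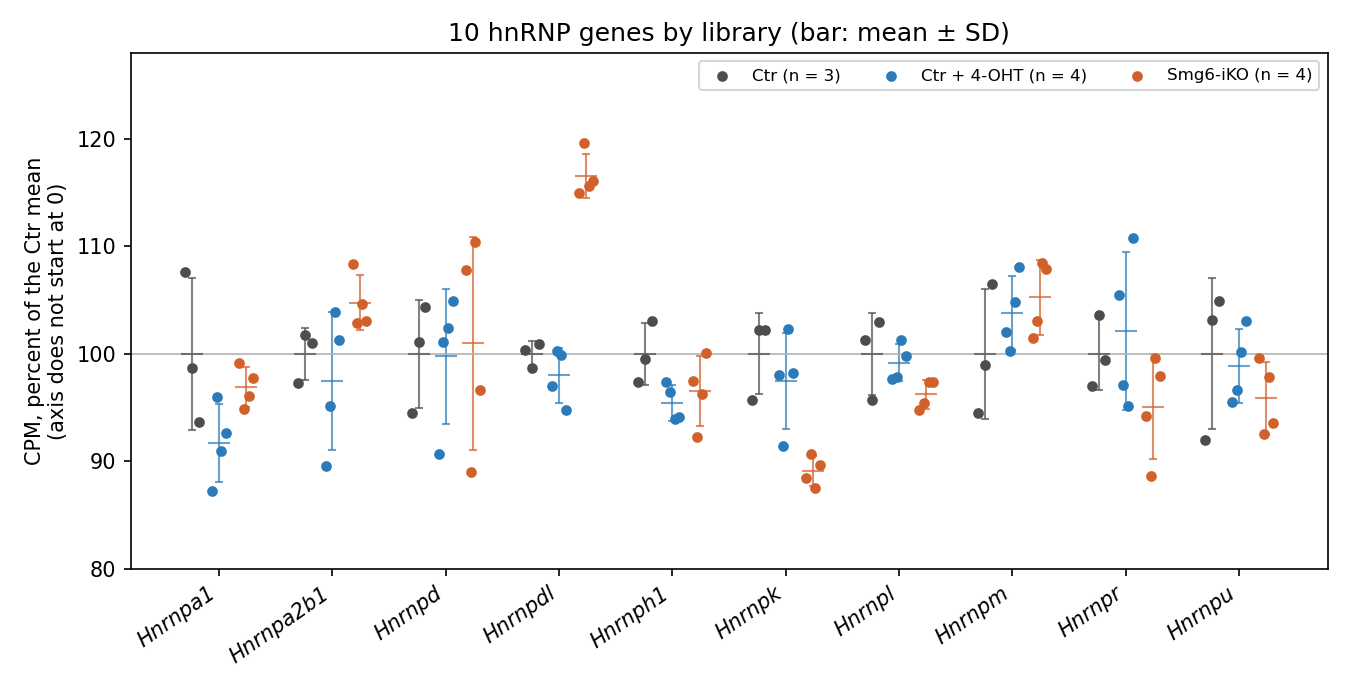
CPM of each library as a percentage of the gene's Ctr mean (vertical axis, which does not start at 0) for the 10 hnRNP genes, with 1 point per library and the mean ± SD of Ctr (n = 3), Ctr + 4-OHT (n = 4) and *Smg6*-iKO (n = 4). *Hnrnpdl* in *Smg6*-iKO lies at 115.0% to 119.6% and *Hnrnpk* at 87.6% to 90.7% of their Ctr means, outside all control libraries of the same gene on this TMM scale; scaled to raw library totals *Hnrnpk* overlaps Ctr + 4-OHT.

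*Hnrnpk* was lower in all *Smg6*-iKO libraries than in any control library after TMM scaling, but passed the test only in some of the fits. It encodes a protein with KH domains that binds C-rich RNA and single-stranded DNA. The gene (ENSMUSG00000021546) lies on the minus strand at chr13:58391142-58403343. Its level was 381.9, 407.8 and 407.8 CPM in Ctr, 391.1, 364.9, 408.3 and 392.0 CPM in Ctr + 4-OHT and 353.2, 361.9, 349.5 and 358.0 CPM in *Smg6*-iKO, in the order of embryos used above. The highest *Smg6*-iKO library and the lowest control library, SMH_126 of Ctr + 4-OHT, had 361.9 and 364.9 CPM. Scaled to raw library totals, *Smg6*-iKO reached 364.6 CPM and Ctr + 4-OHT began at 360.7 CPM, so that these groups overlapped, while Ctr began at 369.7 CPM. In the comparison with Ctr + 4-OHT its log2 fold change was -0.12 (standard error 0.053, 95% interval -0.24 to -0.0013, adjusted p = 0.294, edgeR), and in that with Ctr -0.17 (standard error 0.051, 95% interval -0.28 to -0.054, adjusted p = 0.0643, edgeR). With the embryo as a block, which uses the 3 pairs from the same animal, it fell against Ctr by 0.16 on the log2 scale (adjusted p = 0.0269, edgeR), in a fit that called 21.4% of all genes, 11.2% as lower. DESeq2 also called it lower against Ctr (adjusted p = 0.00781, in a fit that called 16.9% of genes, 9.89% as lower) but not against Ctr + 4-OHT (adjusted p = 0.117, where DESeq2 called 6.06% of genes). Within embryos the difference was -0.077, -0.22 and -0.19 on the log2 scale in embryos SMH_128, SMH_132 and SMH_133. The lower progenitor and higher neuron marker sums of *Smg6*-iKO stand beside the comparison of *Hnrnpk* with Ctr as well, and their part in it was not tested. Of its 50-base stretches, 17.8% also occur in transcripts of 3 other genes, and reads with more than 1 position were not counted.

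**Figure D4:**
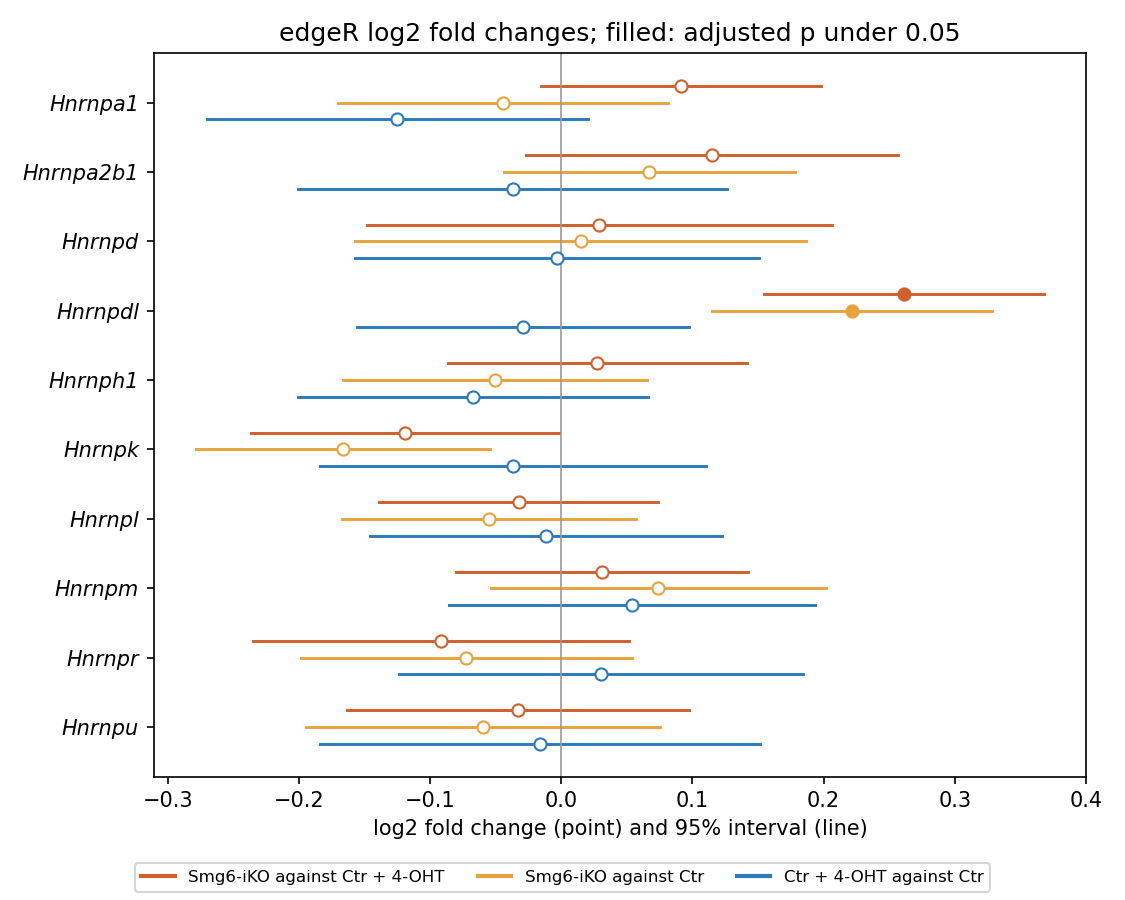
Log2 fold changes from edgeR (points, filled where the adjusted p is under 0.05) with 95% intervals (lines) for the 10 hnRNP genes in the 3 comparisons. The 2 filled points are *Hnrnpdl* in *Smg6*-iKO, at 0.26 against Ctr + 4-OHT and 0.22 against Ctr, and the intervals of the other genes lie between -0.28 and 0.26.

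*Hnrnpd*, the neighbour and closest relative of *Hnrnpdl*, did not share its pattern. It encodes AUF1, which binds AU-rich elements and promotes decay of the mRNAs that hold them. The gene (ENSMUSG00000000568, chr5:99955935-99978938, minus strand) had 87.4, 93.6 and 96.7 CPM in Ctr, 83.9, 93.5, 94.8 and 97.1 CPM in Ctr + 4-OHT and 99.8, 82.4, 102.2 and 89.4 CPM in *Smg6*-iKO. The *Smg6*-iKO libraries spread on both sides of the controls. Its log2 fold change in *Smg6*-iKO was 0.029 against Ctr + 4-OHT (95% interval -0.15 to 0.21) and 0.015 against Ctr (95% interval -0.16 to 0.19), with adjusted p = 0.892 and 0.930 (edgeR). With the embryo as a block the value against Ctr was -0.022, so its sign was not stable. The difference between *Hnrnpd* and *Hnrnpdl* was not tested.

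The A/B type hnRNPs bind splicing silencers and mRNA transport signals. *Hnrnpa2b1* (ENSMUSG00000004980, chr6:51460932-51469894, minus strand) had 645.0, 675.1 and 669.6 CPM in Ctr, 593.9, 631.0, 689.3 and 671.5 CPM in Ctr + 4-OHT and 719.1, 682.6, 693.5 and 683.7 CPM in *Smg6*-iKO. The *Smg6*-iKO libraries lay above all of Ctr and overlapped Ctr + 4-OHT. In *Smg6*-iKO this gave a log2 fold change of 0.11 against Ctr + 4-OHT (95% interval -0.027 to 0.26, adjusted p = 0.401) and 0.067 against Ctr (95% interval -0.044 to 0.18, adjusted p = 0.428, edgeR). *Hnrnpa1* (ENSMUSG00000046434, chr15:103240432-103246692, plus strand) had 119.3, 109.4 and 103.8 CPM in Ctr, 96.8, 106.4, 100.8 and 102.7 CPM in Ctr + 4-OHT and 109.9, 105.2, 106.5 and 108.3 CPM in *Smg6*-iKO. The groups overlapped in each comparison. The log2 fold changes of *Hnrnpa1* were 0.091 against Ctr + 4-OHT (adjusted p = 0.373), -0.044 against Ctr (adjusted p = 0.666) and -0.12 between the controls (adjusted p = 0.651, edgeR). Its level is uncertain, since 28.2% of its 50-base stretches occur in transcripts of 20 other genes.

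*Hnrnph1*, which binds G-rich RNA, *Hnrnpl*, which binds CA-rich RNA, and *Hnrnpm*, which binds GU-rich RNA, are splicing regulators. *Hnrnpl* (ENSMUSG00000015165, chr7:28808541-28822266, plus strand) had 389.7, 368.1 and 396.5 CPM in Ctr, 376.0, 376.6, 389.9 and 384.2 CPM in Ctr + 4-OHT and 364.6, 367.3, 374.7 and 374.5 CPM in *Smg6*-iKO. All *Smg6*-iKO libraries were below all of Ctr + 4-OHT, by little, and overlapped Ctr. With raw library totals they overlapped Ctr + 4-OHT too (370.0 to 385.0 against 372.2 to 388.9 CPM). For *Hnrnpl* the log2 fold changes were -0.033 (95% interval -0.14 to 0.074, adjusted p = 0.786) and -0.055 (95% interval -0.17 to 0.057, adjusted p = 0.529, edgeR). *Hnrnph1* (ENSMUSG00000007850, chr11:50376990-50386528, plus strand) had 454.8, 464.7 and 481.7 CPM in Ctr, 454.7, 450.3, 438.7 and 439.7 CPM in Ctr + 4-OHT and 455.1, 431.1, 449.6 and 467.7 CPM in *Smg6*-iKO. Here it was the Ctr + 4-OHT libraries that lay below all of Ctr, the nearest pair being 454.7 and 454.8 CPM, with a log2 fold change of -0.067 (adjusted p = 0.789, edgeR). *Hnrnpm* (ENSMUSG00000059208, chr17:33646233-33686860, minus strand) had 182.2, 190.7 and 205.2 CPM in Ctr, 196.6, 193.2, 202.0 and 208.3 CPM in Ctr + 4-OHT and 195.6, 198.6, 209.0 and 207.9 CPM in *Smg6*-iKO. Its groups overlapped in all comparisons, with log2 fold changes of 0.031 and 0.074 in *Smg6*-iKO (adjusted p = 0.809 and 0.447, edgeR). 24.9% of its exon length overlaps *March2* on the same strand, and reads there were not counted.

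*Hnrnpr* encodes a relative of SYNCRIP with a role in axonal mRNA transport, and *Hnrnpu* encodes scaffold attachment factor A, a nuclear protein that binds RNA and chromatin. *Hnrnpr* (ENSMUSG00000066037, chr4:136310942-136359447, plus strand) had 176.7, 188.8 and 181.1 CPM in Ctr, 192.3, 176.9, 173.3 and 201.8 CPM in Ctr + 4-OHT and 171.7, 161.4, 181.4 and 178.4 CPM in *Smg6*-iKO. *Hnrnpu* (ENSMUSG00000039630, chr1:178321108-178337797, minus strand) had 854.4, 958.4 and 974.4 CPM in Ctr, 887.6, 898.0, 931.2 and 957.9 CPM in Ctr + 4-OHT and 925.3, 860.2, 909.1 and 869.7 CPM in *Smg6*-iKO. Both overlapped in all comparisons. The log2 fold change of *Hnrnpr* was -0.092 and -0.072 against Ctr + 4-OHT and Ctr (adjusted p = 0.514 and 0.455), and that of *Hnrnpu* was -0.033 and -0.060 (adjusted p = 0.830 and 0.574, edgeR).

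Counted over the 10 genes, the libraries of *Smg6*-iKO lay above all of Ctr + 4-OHT for 1 gene (*Hnrnpdl*) and below for 2 (*Hnrnpk* and *Hnrnpl*), where 5.03% of all genes lay above and 5.99% below without overlap. Against Ctr they lay above for 2 (*Hnrnpdl* and *Hnrnpa2b1*) and below for 1 (*Hnrnpk*), where 11.4% of all genes lay above and 11.9% below. For 1 gene (*Hnrnph1*) Ctr + 4-OHT lay below all of Ctr, as it did for 4.91% of all genes. These counts depend on the scaling. With raw library totals *Smg6*-iKO lay above all of Ctr + 4-OHT for 3 genes (*Hnrnpdl*, *Hnrnpa1* and *Hnrnpa2b1*, beside 6.56% of all genes) and below for 0 (4.05%). Against Ctr it lay above for the same 2 (16.0%) and below for *Hnrnpk* (7.47%), and Ctr + 4-OHT lay below Ctr for 0 (4.43%). For the 8 genes other than *Hnrnpdl* and *Hnrnpk*, the 95% intervals of both *Smg6*-iKO comparisons included 0 and bounded the change between -0.23 and 0.26 on the log2 scale.

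The differences within single embryos gave 4 further genes with the same sign in all 3. With *Hnrnpdl* and *Hnrnpk*, 3 of the 10 genes were higher and 3 lower in all 3 embryos, where 25.8% of all genes tested were higher and 25.9% lower in all 3. *Hnrnpa2b1* was higher by 0.030 to 0.082 and *Hnrnpm* by 0.019 to 0.13 on the log2 scale, and none of these was called with the embryo as a block. *Hnrnph1* differed by -0.077 to -0.043 and *Hnrnpr* by -0.13 to -0.021, which were not called either. *Hnrnpa1*, *Hnrnpd*, *Hnrnpl* and *Hnrnpu* had both signs among the 3 embryos.

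**Figure D5:**
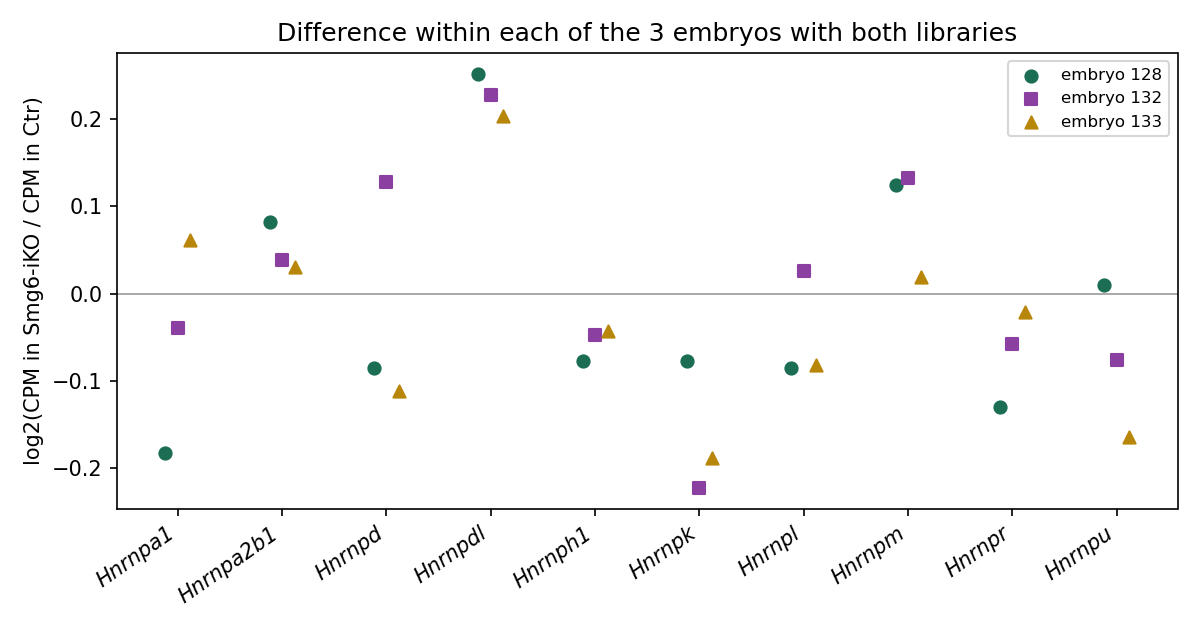
Log2 ratio of CPM in *Smg6*-iKO to CPM in Ctr (vertical axis) within each of embryos SMH_128, SMH_132 and SMH_133 (symbols) for the 10 hnRNP genes. *Hnrnpdl* is higher in *Smg6*-iKO in all 3 embryos, by 0.20 to 0.25, and *Hnrnpk* lower in all 3, at -0.22 to -0.077.

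The other 20 hnRNP family genes were tested in the same fits. Against Ctr + 4-OHT edgeR called none of the 20, beside 1.17% of all genes. At an unadjusted p under 0.05 there were 3 of the 20, which is 15.0%, beside 16.7% of all genes. DESeq2 on the same libraries called 1, *Raly*, beside 6.06% of its genes. Against Ctr edgeR called 1, *Hnrnpul1*, which was lower, beside 9.25% of all genes. With the embryo as a block 5 were called, all lower (*Hnrnpab*, *Hnrnpc*, *Hnrnpul1*, *Pcbp2* and *Raly*), in the fit that called 21.4% of all genes and 11.2% as lower. Between the controls edgeR called none, beside 0.221% of all genes, with 2 of the 20 at an unadjusted p under 0.05, beside 8.28% of all genes. Their median log2 fold change was -0.049 against Ctr + 4-OHT and -0.058 against Ctr.

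*Raly*, which encodes an RNA-binding protein related to hnRNP C, had 208.2, 199.6 and 219.3 CPM in Ctr, 235.4, 204.5, 215.4 and 215.7 CPM in Ctr + 4-OHT and 183.7, 191.0, 180.6 and 189.5 CPM in *Smg6*-iKO. All *Smg6*-iKO libraries were below all control libraries. Its log2 fold changes in edgeR were -0.21 against Ctr + 4-OHT (adjusted p = 0.0897) and -0.17 against Ctr (adjusted p = 0.0747). Blocking on the embryo gave -0.16 against Ctr (adjusted p = 0.0240, edgeR). *Hnrnpul1*, a relative of *Hnrnpu*, had 342.9 to 376.0 CPM in Ctr, 294.5 to 352.2 CPM in Ctr + 4-OHT and 281.5 to 307.0 CPM in *Smg6*-iKO. It fell against Ctr by 0.29 on the log2 scale (standard error 0.055, adjusted p = 0.0127, edgeR), and against Ctr + 4-OHT the value was -0.14 (adjusted p = 0.366, edgeR). Its call against Ctr was lost without the Ctr library of SMH_128 or the *Smg6*-iKO library of SMH_133, when 0 of the 20 genes were called. In Ctr + 4-OHT *Hnrnpul1* had 302.9 and 294.5 CPM in SMH_125 and SMH_131, the libraries with the highest neuron marker sums. It had 351.5 and 352.2 CPM in SMH_126 and SMH_129. Neuron marker sums were also higher in *Smg6*-iKO than in Ctr, and their part in the *Hnrnpul1* difference was not tested. *Hnrnpab* had a log2 fold change of -0.28 (adjusted p = 0.183), *Syncrip* of -0.16 (adjusted p = 0.294) and *Hnrnph3* of 0.15 (adjusted p = 0.317, edgeR) against Ctr + 4-OHT. In that group *Hnrnpab* had 416.5 and 443.7 CPM in SMH_125 and SMH_131, and 320.3 and 371.5 CPM in SMH_126 and SMH_129. The part of the neuron marker sums in the *Hnrnpab* difference was not tested.

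The genes whose pattern over the 11 libraries was nearest to that of *Hnrnpdl* were *Mocs2* and *Mto1*. Among 18113 genes, their centred log2 CPM differed from that of *Hnrnpdl* by a root mean square of 0.037 and 0.040. They were chosen for this likeness over the same libraries, so similar fold changes follow from the choice. *Mocs2* encodes subunits of molybdopterin synthase, and *Mto1* a mitochondrial tRNA modification factor.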

How the data were processed

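RNA of 11 NPC cultures was sequenced, and groups and embryo numbers were taken from the sample labels. The authors mapped reads to GRCm38 with STAR 2.5.4b, counted stranded reads with 1 position and 1 gene of Ensembl 92 with featureCounts 1.5.0, and deposited these counts without normalization. Symbols came from GENCODE M21 (53706 of 53801 identifiers), as did transcripts, a later annotation than that of the counts. The 10 genes, the lists and the tests were chosen with earlier results of these data known.

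The groups of each comparison were fitted alone in R 4.3.3 with edgeR 4.0.16 (filterByExpr, TMM, quasi-likelihood test, Benjamini-Hochberg adjustment over all genes tested, threshold 0.05). A standard error is the absolute log2 fold change over the root of the F value. CPM were computed after TMM over 11 libraries (18123 genes kept; prior count of 2 for log2 values). Alternatives used DESeq2 1.42.0, limma 3.58.1, other scaling, no filter, a length correction, all libraries in 1 fit, the embryo as a block, and each library left out. The tests without a block were also run on simulated counts of unpaired libraries, with the same dispersion for all genes. The fit with the embryo as a block was not run on them. Libraries of a group differed by more than sampling noise (chi-square per gene of 11.0 to 43.0). Ctr and *Smg6*-iKO libraries with the same number are from the same embryo, and their deviations from group means correlated across genes with r of 0.328, 0.399 and 0.425, against -0.265 to 0.095 for different embryos; genes are not independent replicates.

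Named genes were all 10 members, of the other family genes those called or else the 4 with the smallest p against Ctr + 4-OHT, *Smg6* and *Gas5* as checks, and the 2 genes nearest in pattern to a member called in both *Smg6*-iKO comparisons. *Hnrnpul1*, *Hnrnpc* and *Pcbp2* were named after their values were seen. Intervals and within-group standard deviations cover the spread between embryos and counting error together; those over all 11 libraries, which come from 8 embryos, also hold the differences between groups. The remaining family genes are given in counts over the 20, and 1 of them was left out of the examination of single libraries.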

Additional observations from a re-analysis of the deposited data

Results flagged for a closer look

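In 2 of 62 sets of 4 libraries examined (hnRNP genes, *Smg6* and *Gas5* in Ctr + 4-OHT and in *Smg6*-iKO), 1 library lay apart from the others by more than Dixon's critical ratio of 0.829, a criterion that chance meets in about 1 of 20 sets. Neither was in one of the 10 genes. *Pcbp2* had 85.4 CPM in Ctr + 4-OHT SMH_131, where the nearest library of the group had 101.9 CPM (ratio 0.869), and 108.6 CPM in *Smg6*-iKO SMH_132, where the nearest had 99.99 CPM (ratio 0.888).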

How the results depend on the processing

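The number of the 10 genes called against Ctr + 4-OHT was 1, and 0 with each library left out (0 to 0) and without the Ctr + 4-OHT libraries of SMH_125 and SMH_131 together, an alternative chosen after seeing the data; *Hnrnpdl* was then at 0.22 (0.24 to 0.27 with each library left out). Against Ctr it was 2 with the embryo as a block, with the block and a length correction, and with DESeq2 on the same libraries or on all 11, the second gene being *Hnrnpk* at -0.16, -0.17, -0.17 and -0.17; it was 0 to 1 with each library left out, where *Hnrnpdl* lay between 0.20 and 0.23. Of the other 20 genes, 1, 1 and 2 were called against Ctr + 4-OHT with all libraries in 1 fit, with DESeq2 on the same libraries and with DESeq2 on all libraries. Against Ctr 2 were called without a filter, 3 with DESeq2 on the same libraries, 1 with DESeq2 on all libraries, 5 with the block and 5 with the block and length correction, and 0 to 1 with each library left out. Over all genes 206 were called against Ctr + 4-OHT, and 418 without a filter, 484 with all libraries in 1 fit, 873 and 1150 with DESeq2 and 66 to 174 with each library left out. Against Ctr 1663 were called, and 2714 without a filter and 796 with all libraries in 1 fit. DESeq2 called 2421 of 14304 genes on the same libraries and 1616 of 14864 on all libraries. There were 3854 and 3672 with the block alone and with length correction and 570 to 2524 with each library left out. Between the controls 39 were called, and 198 without a filter, 60 in 1 fit, 169 and 239 with DESeq2 and 5 to 54 with each library left out. The pairing changed no other call among the 10 genes.

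Some log2 fold changes that were not called turned their sign. *Hnrnpd* was at -0.0083 against Ctr + 4-OHT without SMH_125 and SMH_131, at -0.022 and -0.026 against Ctr with the block alone and with length correction, and at 0.0036, 0.0067 and 0.031 between the controls with upper-quartile normalization, no filter and without SMH_125 and SMH_131. Without the same libraries *Hnrnpdl* was at 0.0070 and *Hnrnpr* at -0.052 between the controls. With each library left out, *Hnrnpd* ranged from -0.024 to 0.080 against Ctr + 4-OHT, from -0.030 to 0.070 against Ctr and from -0.043 to 0.047 between the controls, and *Hnrnpa1* from -0.094 to 0.014 against Ctr. Between the controls *Hnrnpa2b1* ranged from -0.069 to 0.0082, *Hnrnpl* from -0.042 to 0.017, *Hnrnpr* from -0.0039 to 0.063 and *Hnrnpu* from -0.074 to 0.026. With raw library totals, mean CPM moved by over 1 SD for *Hnrnpdl* in Ctr (303.7), *Hnrnpk* in *Smg6*-iKO (361.7) and *Hnrnpl* in *Smg6*-iKO (376.7). Raw totals also ended the separation of *Hnrnpk* and *Hnrnpl* from Ctr + 4-OHT, an alternative chosen after seeing the data. The cause of these shifts was not tested. Gene totals do not resolve transcripts, and a shift between splice forms is not measured.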
